A study of Mus musculus with 3 samples.

Results

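The collagen genes are described here as targets of SRF binding in the mouse cornea. Members were taken by name from the authors' gene table, as symbols made of Col, a number, the letter a and a number, and 41 of its 16697 genes qualified. Col4a3bp, which only begins like a collagen symbol and encodes a ceramide transfer protein, was left out. The table lists genes with at least 1 assigned SRF interval, so every member has a region by construction. RefSeq (GRCm38.p6) holds 44 such symbols, and Col4a5, Col7a1 and Col10a1 were not analysed here. The members were assigned 110 of 31850 merged regions, 1 of which lists both Col9a1 and Col19a1.

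Chromatin immunoprecipitation with sequencing against serum response factor (SRF) was done on whole cornea of untreated mice of mixed background at about 8 weeks of age. The mutant library came from Dstn-corn1 mice, in which destrin, a protein that takes actin filaments apart, is lost, and the wildtype library from mice titled wildtype. A growth note on all libraries speaks of mutant mice, also for the library titled wildtype. The remaining library was input DNA, made with no antibody, and neither its values nor its genotype were used here. The number of animals behind a library is unknown here. With 1 library for each genotype there is no replicate check, no p-value and no test of any difference below.

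Collagens are triple-helical proteins of the extracellular matrix. The corneal stroma is built of thin, evenly spaced fibrils of type I collagen with type V, and type VI forms filaments between them. Type IV networks carry basement membranes, type VIII builds much of Descemet's membrane under the corneal endothelium, and type XVII anchors the epithelium in hemidesmosomes. SRF binds a sequence called the CArG box and, with its actin-sensing MRTF cofactors, drives genes of the cytoskeleton and of contractile and matrix-producing cells. Free actin holds MRTF in the cytoplasm, and destrin acts on the pool of free actin.

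Binding is given as peak height, meaning the top of the signal within a region, for each library, and a region is called in a library where the authors placed an interval there. Over all 31850 regions the median height was 13 in mutant and 28 in wildtype, and the authors called 16399 and 31282 intervals. After adding 1 to each height, the log2 of mutant over wildtype had a median of -1.10, so a ratio near this value is typical of these libraries. How the libraries were scaled against each other is unknown here. All 3 regions of Dstn were listed at 0 in mutant and at 11 to 35 in wildtype. Of cornea marker genes, an interval in wildtype was assigned to 4 of 4 for epithelium, 2 of 3 for endothelium and 2 of 5 for stromal keratocytes, and in mutant to 3, 2 and 0. The endothelium markers with an interval were Col8a2, itself a member, and Tjp1, whereas Slc4a11 had none. Of all listed genes, 99.0% had an interval in wildtype and 73.8% in mutant, but that list holds only genes with an interval. SRF binding does not measure cell numbers, and different cell shares and different binding per cell cannot be told apart in whole cornea.

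SRF regions right at the gene start were found for a minority of collagen genes, and the number depends on the distance allowed. A region centred within 1 kb of the gene start, called a promoter region here, was found for 5 of 41 collagen genes (12.2%): Col1a1, Col6a2, Col16a1, Col23a1 and Col27a1. Among all listed genes the share was 48.3%, and of all regions with a gene 29.8% were centred at such a start. Collagen genes are long, with a median of 114.4 kb against 18.3 kb for all listed genes. Among genes of at least 50 kb, 3 of 28 collagen genes (10.7%) had a promoter region, against 46.7% of all such genes. Within 5 kb of the start 15 collagen genes had a region. A region that the authors count at a promoter was listed for 20, but that promoter can be a neighbour's. Col4a3 and Col4a6, for example, are counted through regions at the starts of Mff and Atg4a. Shares of all listed genes under these wider rules were not computed. Outside the 1 kb distance, collagen genes entered the table through regions inside the gene or beside it.

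The promoter sequences of Col27a1, Col16a1, Col23a1 and Col6a2 are shown because SRF signal lay over them, and that of Col1a1 was not analysed here. Each line gives the 250 bases before the most upstream start in RefSeq (GRCm38.p6), read 5′ to 3′ along the gene, with GC boxes (GGGCGG on either strand, a site for Sp factors) in capitals. The windows are chr4:63215162-63215411 (+) for Col27a1, chr4:130047590-130047839 (+) for Col16a1, chr11:51289670-51289919 (+) for Col23a1 and chr10:76623631-76623880 (-) for Col6a2. The authors' regions cover all 250 bases of the first 3 windows and 129 bases of the Col6a2 window, which belongs to the more upstream of 2 RefSeq starts. The summits at Col27a1 and Col16a1 lie inside these windows. Those of the overlapping regions at Col23a1 (51289632) and Col6a2 (76623424) lie outside them, so the lines do not show the sequence under these summits.
Col27a1: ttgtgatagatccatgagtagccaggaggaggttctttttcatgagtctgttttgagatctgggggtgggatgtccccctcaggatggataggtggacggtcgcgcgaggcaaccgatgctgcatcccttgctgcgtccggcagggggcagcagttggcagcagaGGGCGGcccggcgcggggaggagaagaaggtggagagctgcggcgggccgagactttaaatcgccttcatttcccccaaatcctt
Col16a1: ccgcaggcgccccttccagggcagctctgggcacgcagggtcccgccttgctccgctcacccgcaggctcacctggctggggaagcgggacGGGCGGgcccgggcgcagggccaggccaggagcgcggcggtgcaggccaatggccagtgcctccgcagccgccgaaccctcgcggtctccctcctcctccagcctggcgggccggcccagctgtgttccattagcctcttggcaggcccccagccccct
Col23a1: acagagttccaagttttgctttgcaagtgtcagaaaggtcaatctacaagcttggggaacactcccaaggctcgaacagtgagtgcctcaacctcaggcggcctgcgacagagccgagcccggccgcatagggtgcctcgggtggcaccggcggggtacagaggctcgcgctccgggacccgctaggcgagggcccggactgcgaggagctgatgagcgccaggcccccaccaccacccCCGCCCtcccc
Col6a2: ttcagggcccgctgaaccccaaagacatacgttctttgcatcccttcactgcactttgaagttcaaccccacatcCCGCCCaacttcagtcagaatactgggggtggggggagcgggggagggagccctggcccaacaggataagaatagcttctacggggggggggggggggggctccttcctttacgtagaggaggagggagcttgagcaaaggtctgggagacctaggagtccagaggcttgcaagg

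All 4 windows hold 1 GC box and none holds a CArG box, on either strand. The CArG box was also absent with 1 mismatch allowed. GC content ran from 59.2% in Col6a2 to 75.6% in Col16a1, and CpG pairs from 6 to 21, against medians of 52.4% and 6 over 32851 promoter windows of the same length. Of 35 windows of 32 collagen genes in RefSeq, 20 held a GC box (57.1%, against 32.7% of all windows). A CArG box was in 1 of the 35, at Col6a4 (2.86%, against 1.47% of all). The Ets core GGAAG, searched on both strands, was in 25 (71.4%, against 64.1%). These matches describe letters in a window and not bound sites.

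Col1a1, the major chain of corneal fibrils, carried the highest promoter region. The region at chr11:94935975-94938219 (mm10, 2244 bp long) covers the gene start and reached 53 in mutant and 130 in wildtype. The log2 ratio was -1.28. Its summit was at 94937152 in both libraries, 882 bp past the start and inside the gene. Further regions inside Col1a1, centred 3187 and 6199 bp past the start, had heights of 33 and 50 and of 11 and 19. All 3 regions were called in both libraries. Col1a2, which encodes the partner chain of type I collagen, had no region inside it. Its 3 regions lay past its end, centred 39085 to 43355 bp from its start, and none was called in mutant. The highest of them stood at 5 in mutant and 38 in wildtype. Its log2 ratio of -2.70 was the lowest among the highest regions of members that reach 28, the median height of the higher library.

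The other promoter regions were lower. Col27a1, a fibrillar collagen gene of cartilage and other tissues, had 37 in mutant and 62 in wildtype, with the summit of each library 116 bp before the start. Col23a1, a transmembrane collagen gene, had 30 and 50 at a region centred 255 bp before its start and 12 and 15 at one centred 414 bp past it. Both regions also list Clk4. Col6a2, a type VI chain gene, had 10 and 35, called in wildtype only. Col16a1, a fibril-associated collagen gene, had 8 and 15, also called in wildtype only. All but the Col1a1 region overlap a CpG island in the authors' table. The median log2 ratio of the 6 promoter regions was -0.78, with 2 of them at least 2-fold lower in mutant (33.3%, against 39.6% of all regions within 1 kb of a start) and 0 at least 2-fold higher (against 0.346%).

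Most collagen regions lay far inside the genes. Of the 104 regions outside promoters, called distal here, 79 were inside the gene, 14 upstream and 11 downstream. The 79 were centred a median of 87.5 kb past the start, against 31.9 kb for regions inside all listed genes. Relative to gene length the medians were alike, at 57.8% and 57.7% of the way from start to end, and 60.8% of the collagen regions were in the later part, beyond the midpoint, against 57.2%. Collagen genes held 1.6 regions per 100 kb of gene against 1.83 over all genes, and the order was the other way among genes of at least 50 kb, at 1.52 and 1.22. Exons and introns were not told apart, since only the authors' position classes were used. A CpG island overlapped 12 of 110 collagen regions (10.9%), against 23.0% of all regions.

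**Figure D1:**
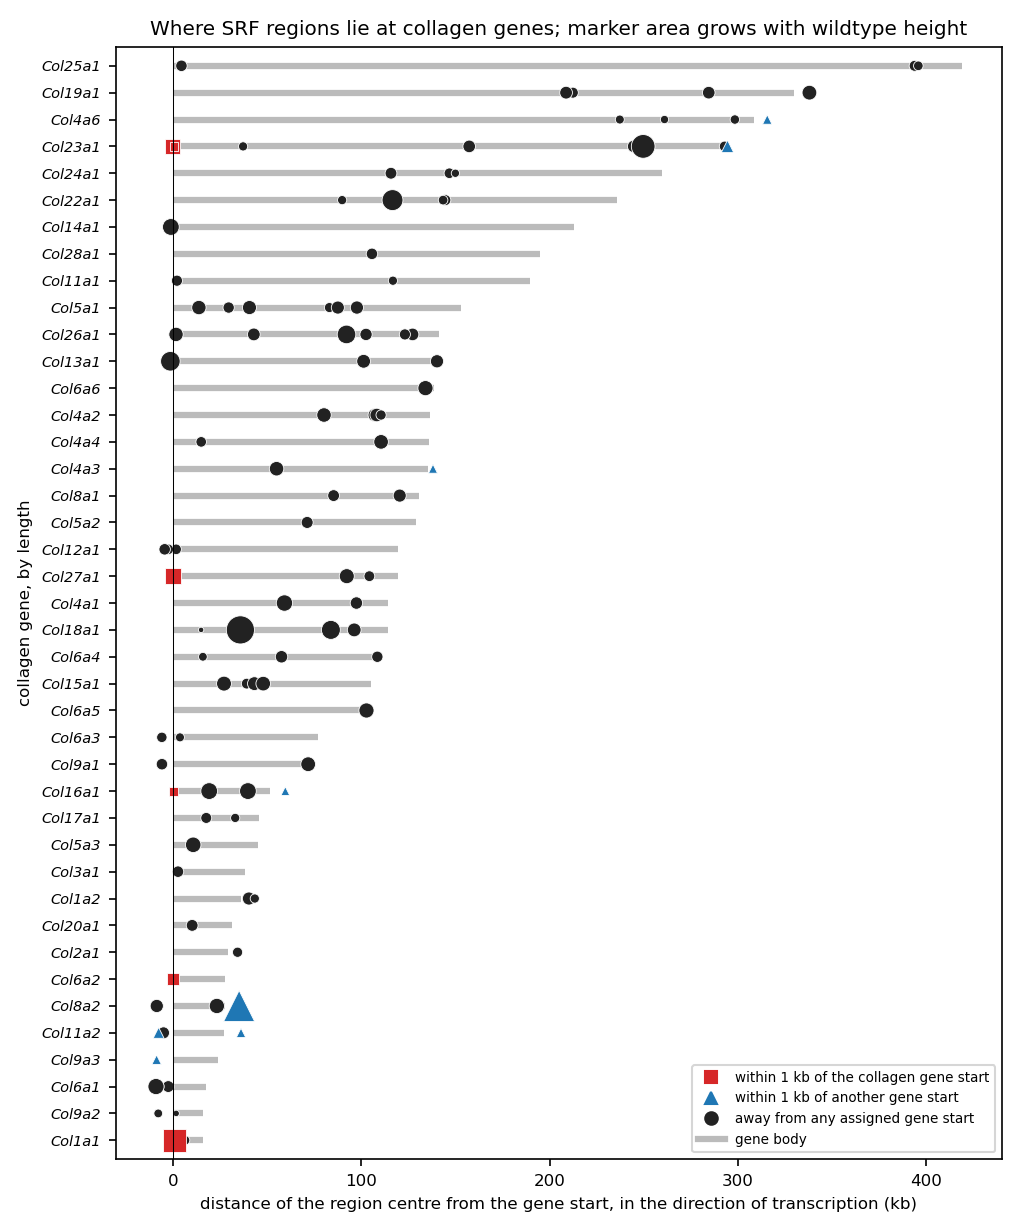
Position of each SRF region at the 41 collagen genes, as the distance of the region centre from the gene start in kb, with gene bodies in grey and genes ordered by length; marker area grows with wildtype height. Squares mark the 6 promoter regions, triangles the 8 regions within 1 kb of another gene's start and circles the other 96, most of which lie along the gene bodies. The region shared by Col9a1 and Col19a1 is drawn at both genes.

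The collagen gene with the most regions was Col23a1, with 8. Its highest region, centred 249758 bp past the start at chr11:51539075-51540282, reached 64 in mutant and 138 in wildtype, above its promoter region. Col5a1, the gene of the chain that limits fibril thickness, and Col26a1 had 6 regions each, and Col18a1 had 5. In all, 21 collagen genes had 3 or more regions and 11 had 1.

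Collagen genes were called less often in the mutant library than in the wildtype library, as were genes in general. An interval was assigned to 25 of 41 in mutant (61%, against 73.8% of all listed genes) and to 41 of 41 in wildtype (against 99.0%). Among genes of at least 50 kb the mutant shares were 67.9% and 72.2%. By region, 49 of 110 were called in mutant (44.5%, against 51.0%), 108 in wildtype (against 97.9%), 47 in both (against 48.9%) and 2 in mutant only (against 2.1%). The 16 genes with no mutant interval were Col1a2, Col2a1, Col3a1, Col11a1 and Col24a1 of the fibrillar collagens, Col9a1, Col9a3, Col19a1 and Col20a1 of the fibril-associated ones, Col6a2, Col6a3 and Col6a6 of type VI, and Col4a4, Col8a1, Col17a1 and Col25a1.

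Heights of collagen regions were lower in mutant in all but 4 of 110 regions, 3 with a higher mutant height (at Col6a1, Col9a2 and Col18a1) and 1 with equal heights (beside Col16a1). A higher mutant height was also rare over all regions, at 1175 of 31850. The 110 regions had median heights of 12 in mutant and 30 in wildtype. Their median log2 ratio was -1.14 (95% order-statistic interval over regions -1.39 to -1.07), against -1.10 for all regions. That interval treats regions of a gene as independent and does not measure spread between animals or libraries. At least 2-fold lower in mutant were 69 regions (62.7%, against 59.0% of all), and 2 were at least 2-fold higher (against 0.414% of all). Taking for each gene its region of highest mean height, 29 of 41 genes were at least 2-fold lower (70.7%, against 57.7% of all genes) and 0 at least 2-fold higher (against 0.198%). Over genes whose highest region is not at their start, the shares were 71.1% of 38 collagen genes and 62.2% of all. Among genes of at least 50 kb they were close, at 64.3% (18 of 28 collagen genes) and 63.1% of all such genes. With the mutant heights multiplied by 2.1, which sets the medians of regions called in both libraries equal, the median of all regions was -0.090 and that of collagen regions -0.15. Then 15 collagen regions were at least 2-fold lower (all regions 9.3%) and 4 at least 2-fold higher (all regions 4.58%).

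**Figure D2:**
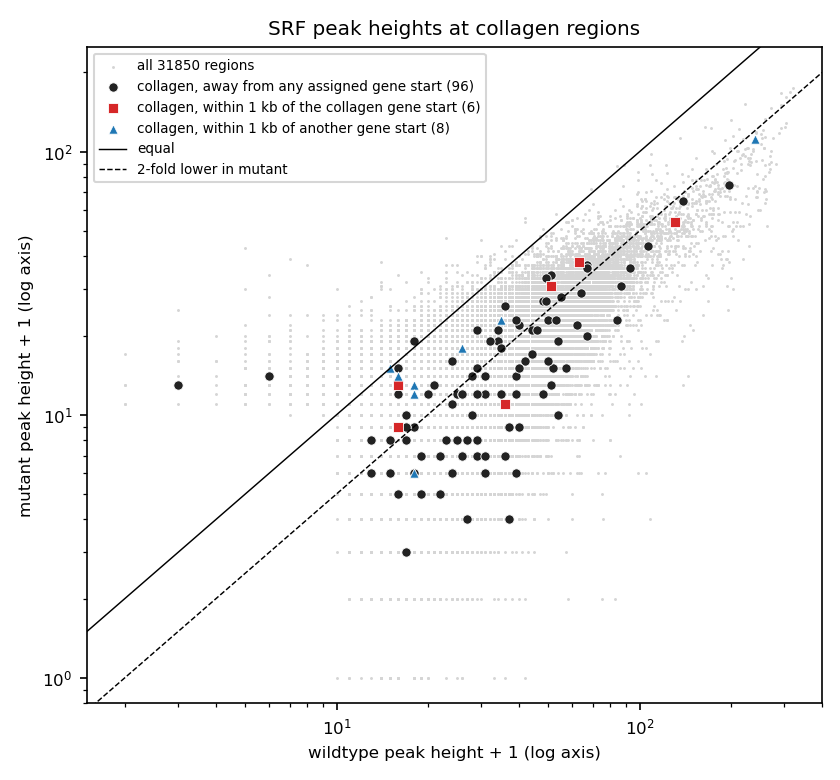
Peak height plus 1 in wildtype (x) and mutant (y), on log axes, for all 31850 regions in grey and the 110 collagen regions by their place at gene starts. Collagen regions lie within the grey cloud, 69 of them on or below the dashed line of a 2-fold lower mutant height, and 2 stand at the upper left with mutant heights of 12 and 13.

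Distal regions stood lower in ratio, by their median, than regions at gene starts, a difference that was not tested. The order was the same over all regions, with medians of -1.15 away from assigned starts and -0.81 within 1 kb of a start. The 104 distal regions had a median of -1.18, with 67 at least 2-fold lower (64.4%) and 2 at least 2-fold higher. Of all regions with a gene and away from any assigned start, 62.7% were lower and 0.476% higher. Of the 104, 8 were within 1 kb of the start of another gene and had a median of -0.56, with 2 at least 2-fold lower (25%, against 39.6% of all regions within 1 kb of a start). The 96 away from any assigned start had a median of -1.30 (95% order-statistic interval over regions -1.48 to -1.12), against -1.15 for 17029 such regions in all. These regions belong to 39 genes, so the interval treats regions of a gene as independent. It does not measure spread between animals or libraries. Of the 96, 65 were at least 2-fold lower (67.7%, against 62.7% of all such regions) and 2 at least 2-fold higher (against 0.476%). At wildtype heights of 20 to below 40 these medians were -1.48 over 46 collagen regions and -1.13 over 7182 regions in all, and 26.1% and 41.1% were called in mutant. At heights of 40 or more they were -1.37 and -1.22, with 80% and 87% called, and below 20 they were -0.92 and -1, with 20% and 16% called. Whether collagen regions differ from other regions in this respect was not tested. With the common median, the promoter median was 0.24 and the distal median -0.17.

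Among the 47 regions called in both libraries, 21 were at least 2-fold lower (44.7%, against 48.2% of all such regions) and 0 at least 2-fold higher (against 0.0577%).

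**Figure D3:**
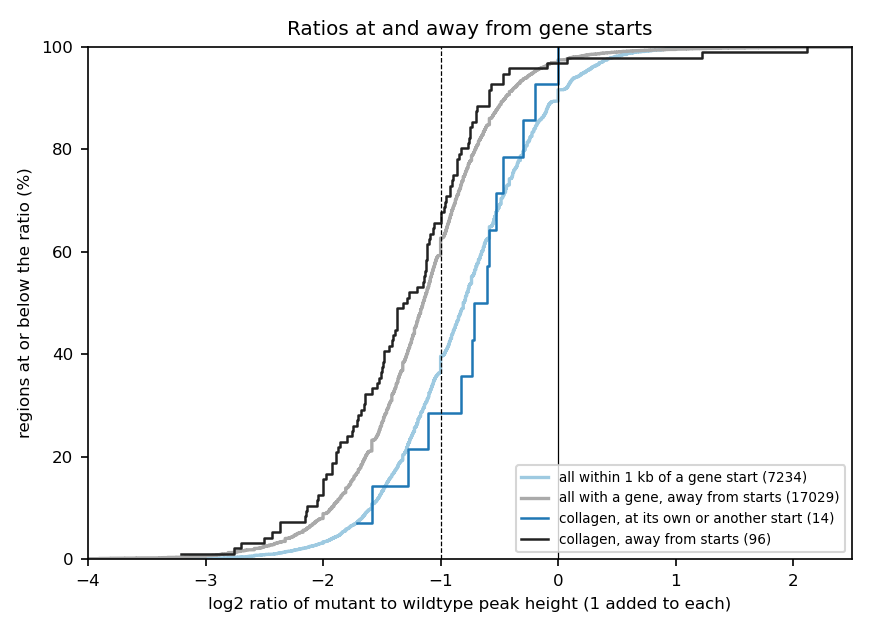
Share of regions (%) at or below each log2 ratio of mutant to wildtype height. The curve of 96 collagen regions away from starts (black) lies left of that of all such regions (grey) over the middle of the range and crosses it at both ends, with medians of -1.30 and -1.15, and the 14 collagen regions at starts (dark blue) lie near the curve of all regions at gene starts (light blue).

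Some of the signal listed for collagen genes sits at the promoters of neighbours. Col8a2, a type VIII chain gene of corneal endothelium, had the highest region of all members, 111 in mutant and 240 in wildtype at chr4:126320889-126322768. That region is 35034 bp past the Col8a2 start, overlaps a CpG island, and also lists Adprhl2, Tekt2 and Gm12945, with 1 of these starts 125 bp away. The region inside Col8a2, centred 23192 bp past its start, had 27 and 54, and the one upstream had 14 and 39. The other 7 such regions were at the starts of genes listed with Col11a2 (2 regions), Col4a3 (with Mff), Col4a6 (with Atg4a), Col9a3 (with Mrgbp and Ogfr), Col16a1 (with Pef1) and Col23a1 (with Agxt2l2). They had mutant heights of 5 to 22 and wildtype heights of 14 to 34. For Col9a3 this was the only region. In all, 17 of 110 collagen regions listed another gene (34.1% of all regions with a gene list more than 1).

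Fibrillar collagens, the chains of the stromal fibrils and their relatives, had 27 regions over 11 genes with a median log2 ratio of -1.20, and 8 of the 11 genes were at least 2-fold lower at their highest region (against 57.7% of all genes). Col5a1 had its 6 regions 13650 to 97621 bp past its start, with mutant heights of 8 to 20 and wildtype heights of 20 to 47. Only the one at 40519 bp was called in mutant, with 20 and 45. Col5a2, the gene of the other main type V chain, had 1 region with 18 and 31, called in both. Col5a3 had 14 and 56, also called in both, and Col3a1, the type III gene, 11 and 28 at a region 2544 bp past its start. The regions of Col5a2 and Col5a3 thus differed in ratio, at -0.75 and -1.93, with both called in mutant. Col11a1 had the lowest mutant heights of the class, 3 and 2, against 26 and 16 in wildtype, while the 3 regions of Col11a2, all outside the gene and shared with neighbours, had 12 to 18 against 17 to 31. Col2a1, the cartilage collagen gene, had 4 and 21 at a region past its end. Col24a1 had 3 regions with 5 to 13 against 12 to 30. Besides its promoter region, Col27a1 had 22 and 52 at 92236 bp and 7 and 24 at 104251 bp.

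Fibril-associated collagens, which sit on fibril surfaces, had 21 regions over 9 genes with a median of -1.28, and 5 of the 9 genes were at least 2-fold lower at their highest region (against 57.7% of all genes). Col22a1 had the highest of them, 43 in mutant and 106 in wildtype at 116545 bp past its start, with 3 lower regions of 4 to 7 against 16 to 25. Col14a1 had 36 and 66 at a region centred 1242 bp before its start, just outside the promoter distance. Col12a1, a surface collagen of the corneal stroma, had 3 regions around its start, centred from 4533 bp before to 1549 bp past it, with 10 to 15 against 23 to 28. Inside Col16a1 were regions of 19 and 66 and of 35 and 66, equal in wildtype and different in mutant. Col19a1 had 4 regions with 3 to 12 against 25 to 50, all at least 2-fold lower, and 1 of these, 12 and 50, is the region shared with Col9a1. The other Col9a1 region had 7 and 28, Col9a3 had 11 and 17, and Col20a1 11 and 30. Col9a2 had 5 and 14 at an upstream region and 13 and 5 at a region 1564 bp past its start, which was called in mutant only.

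Type IV collagens of basement membranes had 14 regions over 5 genes with a median of -1.27, and 2 of the 5 genes were at least 2-fold lower at their highest region (against 57.7% of all genes). Col4a1 and Col4a2 are neighbours transcribed away from each other, with starts at 11312826 and 11312829 on chromosome 8 in the authors' table. No region was centred within 1 kb of these starts. Col4a1 had 28 and 63 at 59118 bp and 11 and 34 at 97363 bp, both called in both libraries. Col4a2 had 4 regions, the highest with 26 and 48, and 3 of them stood within 107031 to 110469 bp of its start. Col4a3 and Col4a4 form a like pair, and their nearest region was centred 14880 bp inside Col4a4. Inside Col4a3, 1 region had 32 and 48, whereas the 2 in Col4a4 had 15 and 49 and 5 and 23, with no call in mutant. Col4a6 on the X chromosome had 4 regions with 5 to 14 against 12 to 17.

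Type VI collagens of beaded filaments had 11 regions over 6 genes with a median of -1.50, and 5 of the 6 genes were at least 2-fold lower at their highest region (against 57.7% of all genes). Col6a1 had 3 regions, all upstream, with 5 and 30, 18 and 17, and 21 and 61. The middle one was level between the libraries and yet called in wildtype only. Col6a3 had 7 and 22 upstream and 11 and 15 inside. The minor chain genes Col6a4, Col6a5 and Col6a6 lie in a row on chromosome 9. Col6a5 and Col6a6 each had 1 region near their ends with a wildtype height of 53, and the mutant heights were 18 and 9. Col6a4 had 3 regions with 7 to 17 against 14 to 34.

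The remaining classes were small. Col18a1, a basement membrane proteoglycan whose fragment endostatin blocks vessel growth, had the highest region inside any collagen gene, 74 in mutant and 197 in wildtype at chr10:77130093-77131571, centred 35698 bp past its start. Others inside it had 30 and 86, 16 and 43, and 4 and 15. Another, centred 14820 bp past the start, had 12 in mutant and 2 in wildtype and was called in mutant only. Col15a1, its close relative, had 4 regions with 11 to 22 against 24 to 51. Col8a1, the other type VIII chain gene, had 13 and 38 and 6 and 30, with no call in mutant. Of the transmembrane collagens, Col17a1, the hemidesmosome component, had 9 and 16 and 11 and 25, with no call in mutant. Col13a1 had 35 and 92 at a region 1507 bp before its start, with 21 and 39 and 20 and 43 inside, and all 3 were called in both libraries. Col25a1, the longest member at 419.0 kb, had 3 regions with 6 to 11 against 18 to 28. Col26a1 had 6 regions with 7 to 26 against 26 to 83, the highest with 22 and 83, and Col28a1 had 20 and 28, with the highest ratio, -0.47, among the highest regions that reach 28.

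**Figure D4:**
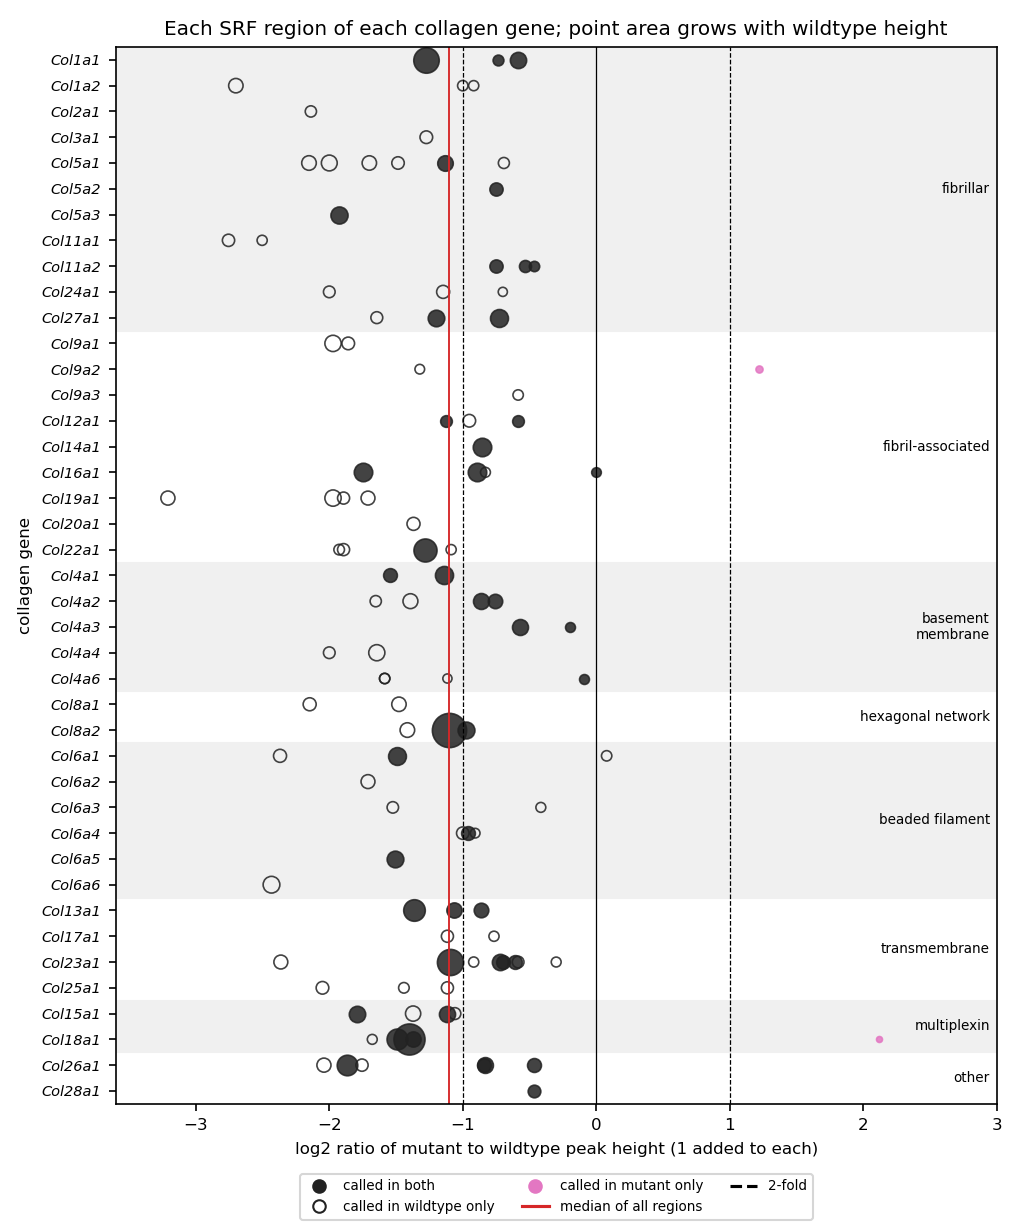
Log2 ratio of mutant to wildtype height for each region of each collagen gene, grouped by class; point area grows with wildtype height, filled points are called in both libraries and open ones in wildtype only. Of the 41 genes, 16 have all regions at least 2-fold lower in mutant and 19 have some regions lower and some not. The 11 genes with 1 region cannot be mixed, and the split over all listed genes was not computed. The 2 pink points right of 1 are the mutant-only regions of Col9a2 and Col18a1.

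In some genes, regions fell on both sides of the 2-fold call, which lies near the median log2 ratio of all regions (-1.10). In 16 of 41 genes all regions were at least 2-fold lower in mutant, in 6 none was 2-fold apart, and in 19 some were lower and some were not. The 11 genes with 1 region cannot be mixed. Of all regions 59.0% were at least 2-fold lower, and the same split over all listed genes was not computed. In Col23a1 ratios ran from -2.36 to -0.30 and in Col26a1 from -2.04 to -0.47. Where both libraries had a call, the place of binding was alike. In 47 collagen regions with 1 interval in each library, the summits were a median of 16 bp apart and 45 (95.7%) were within 100 bp, against 32 bp and 94.4% over all such regions. Summits are listed in steps of 16 bp for 99.1% of intervals, so the median difference was 1 step. The merging of overlapping intervals into regions already favours nearby summits.

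Genes that make, cut, link, bind or degrade collagen were read beside the chains. Of 64 listed, 55 had a region, 41 an interval in mutant (against 73.8% of all listed genes) and 54 in wildtype (against 99.0% of all listed genes). Their median log2 ratio at the highest region was -1.09, with 32 at least 2-fold lower (58.2%, against 57.7% of all genes) and 0 at least 2-fold higher. A promoter region was found for 20 of them (36.4%, against 48.3% of all listed genes). By role, 8 of 14 hydroxylases and glycosyltransferases were at least 2-fold lower, 3 of 7 folding and export genes, 4 of 8 genes of propeptide cleavage, 2 of 5 crosslinking genes, 5 of 8 fibril regulators, 4 of 6 receptors and 6 of 7 genes of degradation. Mmp2, a gelatin-cutting protease gene, had the highest region, 51 in mutant and 148 in wildtype, centred at -9002 bp from its start, upstream. Sparc, a collagen-binding matrix protein gene, followed with 49 and 75.

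Several genes that modify collagen chains had wildtype heights of 76 to 79. Leprel2, a prolyl 3-hydroxylase gene, had 17 and 79, Fkbp10, a collagen chaperone gene, 20 and 78, Colgalt2, a collagen galactosyltransferase gene, 18 and 76, and Adamts2, the procollagen N-proteinase gene, 16 and 78. Leprel2, Fkbp10 and Adamts2 were called in mutant and Colgalt2 was not. P4ha3, a prolyl 4-hydroxylase subunit gene, had 26 and 63, and Fmod, the fibromodulin gene, 29 and 59. The regions of Leprel2, Fkbp10, Colgalt2 and P4ha3 also list other genes. The lowest ratios were those of Plod3, a lysyl hydroxylase gene, with 4 and 74 at a region it shares with Mir702, of Loxl4 with 5 and 28 and of Lox, the founding lysyl oxidase gene, with 6 and 32. None of these 3 genes was called in mutant. Among regions that reach 28, the highest ratios were those of Leprel1 (34 and 47), Tll2 (22 and 32) and Prelp (35 and 52), and all 3 were below 0. Of the lower regions, 4 had ratios above 0: Itga2 (24 and 16), Pcolce (22 and 15), Klhl12 (18 and 13) and Sec23a (24 and 23).

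**Figure D5:**
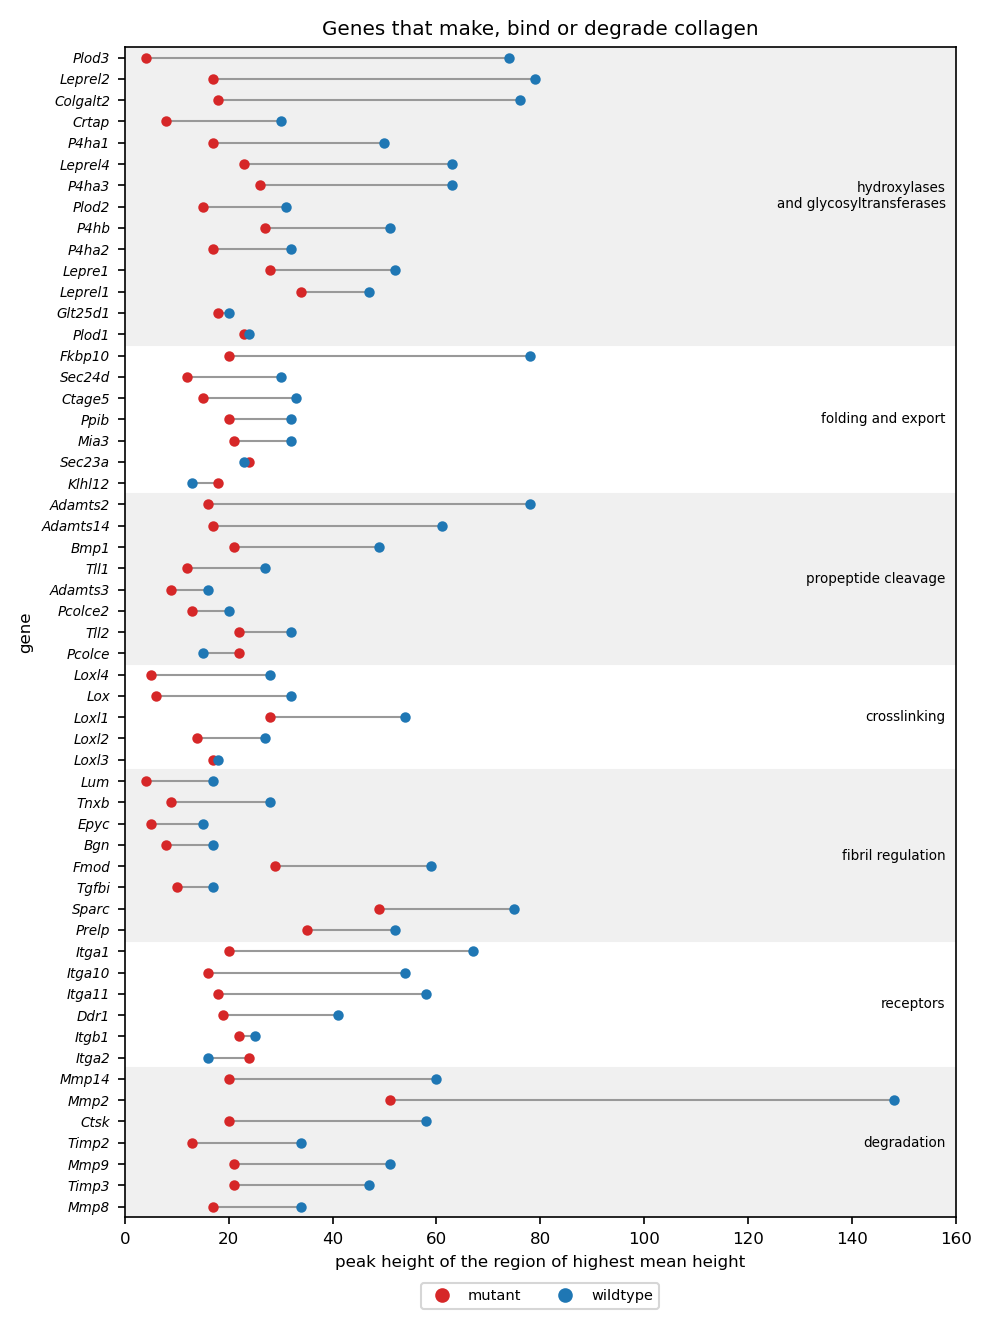
Peak heights in mutant (red) and wildtype (blue) at the region of highest mean height for the 55 genes that make, cut, link, bind or degrade collagen, grouped by role. Wildtype is the higher value for all but 4 genes (Klhl12, Sec23a, Pcolce and Itga2), and Mmp2 has the highest pair at 51 and 148. Among all 16697 listed genes, mutant is higher at this region for 540.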

How the data were processed

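The submitters' processing notes name BWA as the aligner and mm10 as the build. No source used here names the interval caller, a threshold or a scaling step. The values are peak heights and averages of signal over merged regions, as the authors deposited them for both SRF libraries, beside intervals per library and a gene table. The depth behind the values is unknown, and coordinates are as listed.

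Members were matched by full symbol, and the members and lists were chosen with earlier results of these data known. Promoter regions are centred within 1 kb of the collagen gene's start by the authors' distance. Ratios are log2((mutant + 1)/(wildtype + 1)) of peak heights, which understates low regions, and 2-fold apart was the call. A gene was represented by the region with the highest mean of both heights, by region number where tied. The rule for named genes took members with a promoter region, the 10 highest, the 5 extreme ratios each way at or above a height of 28 and the corneal types. The remaining members are given so that each is accounted for. Of the pathway list it took the 8 highest and, at or above a height of 28, the 3 extreme ratios each way. Alternatives were the average value, a pseudocount of 5, common scaling, and other region, gene and promoter rules. The ratio code was tested on simulated data. Python 3.11.15, numpy 2.4.6, pandas 2.3.3, scipy 1.17.1 and matplotlib 3.10.9 were used.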

Additional observations from a re-analysis of the deposited data

How the results depend on the processing

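No paired analysis was possible because there was 1 library per genotype, which also left no replicate to omit. With the average value in place of the peak height, the median log2 ratio was -0.92 over collagen regions, -0.92 over distal ones and -0.72 over the pathway genes. Then 18 collagen genes, 45 collagen regions and 15 pathway genes were at least 2-fold lower in mutant, and 1 region was higher. Over all regions that setting gave a median of -0.83, with 35.5% lower and 0.295% higher. A pseudocount of 5 gave a median of -1.04 over collagen regions, with 58 regions at least 2-fold lower and 1 higher. Over all regions it gave a median of -0.93, with 45.3% lower and 0.204% higher. Common scaling, which raises every ratio by construction, gave medians of -0.15 over collagen regions, -0.17 over distal regions and -0.065 over pathway genes, and turned the promoter median to 0.24 and Fmod to 0.045. Then 4 collagen genes, 15 collagen regions and 5 pathway genes were lower, and 4 collagen regions and 4 pathway genes were higher. Of all regions, 9.3% were lower and 4.58% higher with this scaling. Shares of all listed genes with the average value or with common scaling were not computed. Regions called in both libraries had a median of -0.90. With the region nearest the start, 25 collagen genes were at least 2-fold lower in mutant and 2 at least 2-fold higher. The shares of all listed genes under that rule were not computed. Intervals at or above a height of 29 remained for 10 collagen genes in mutant and 30 in wildtype. Intervals within 1 kb of the start remained for 3 in mutant and 5 in wildtype. Shares of all listed genes under these interval rules were not computed. The cause was not tested for the average value, whereas the other rules change which regions, intervals or scale enter by construction. The promoter rule by the authors' own count and the exclusion of other genes' starts were chosen after seeing the data. With depth unknown, no limit for low regions is given.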

Other observations

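A call did not follow height alone. The 61 collagen regions called in wildtype only had mutant heights of 2 to 18, and 24 of the 61 were at or above 10. Collagen regions called in mutant had heights from 10. Over all 15593 regions called in wildtype only, mutant heights ran from 0 to 77. The share of these at or above 10 was not computed. The region upstream of Col6a1, with 18 in mutant and 17 in wildtype, is an example chosen after its values were seen. Counts of genes called in mutant and counts of genes with lower heights are therefore different measures.

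Both mutant-only collagen regions were low, with 12 and 2 inside Col18a1 and 13 and 5 near the start of Col9a2. In Col18a1 the other 4 regions were all at least 2-fold lower in mutant. No replicate bears on either region.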
